A study of Mus musculus with 6 samples.

Results

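Hypoxia-inducible factor (HIF) target genes outside glycolysis were followed in RNA pulled down from mouse retina. The genes, named as known HIF targets by a rule that uses no measured value but set with earlier results of these data known, were Vegfa, Adm, Egln3, Bnip3, Bnip3l, Higd1a, Ndrg1, Ankrd37, P4ha1 and Kdm3a. All 10 were found among the 55335 genes of the deposited count table, and all 10 passed the filter on low counts that left 17687 genes.

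The samples were retinas of C57BL/6 mice aged 10 weeks whose genotype the labels give as wild type. The pull-down used an anti-HA antibody, and the labels name neither the protein that carried the HA tag nor the cells or promoter that drove it. One group of 3 libraries came from naive mice. The other 3 came from the SOHU model, an under-detected ocular hypertension brought about by silicone oil in the anterior chamber, and were collected 1 week after the injection. Whether the 3 libraries in each group are 3 animals, pools or repeat preparations is not stated in the labels. The p-values therefore reflect the spread among these libraries alone, which may be technical.

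HIF is a pair of proteins, an oxygen-labile alpha subunit (Hif1a or Epas1, also called HIF-2α) and a stable beta subunit (Arnt or Arnt2). When oxygen is plentiful, prolyl hydroxylases of the Egln family mark the alpha subunit, the Vhl complex recognises the mark, and the subunit is degraded. When oxygen is short, the alpha subunit persists and the pair binds short ACGTG or GCGTG motifs near its targets, which serve blood supply, mitochondrial turnover, collagen synthesis and chromatin. The amount of Hif1a mRNA is therefore a poor guide to HIF activity, and HIF protein was not measured here.

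Each library held 21691354 to 26824919 counted reads. The label calls the cells retinal ganglion cells, the output neurons of the retina, and all 20 of their markers in the list used here were detected, but RNA of other cells was present in every library. Ganglion cell markers made up 0.444 to 0.709% of the reads in naive and 0.216 to 0.315% in SOHU libraries, and Müller glia and astrocyte markers 1.38 to 1.91% and 2.80 to 5.03%. In the SOHU libraries 19 of 20 ganglion cell markers were lower and 11 of 15 glial markers higher at an adjusted p under 0.05. The summed share of amacrine and horizontal cell markers was also lower, with 0.433 to 0.486% and 0.198 to 0.289%. Of these 11 markers 4 were called lower (Calb1, Calb2, Gad2 and Tfap2b) and 7 did not pass. Most of the summed share in every library was Calb2 and Calb1. Calb2 had 67433, 43013 and 45842 reads in naive and 16323, 20809 and 25078 in SOHU libraries. Of the microglia and macrophage markers 4 of 9 tested were called higher (Tyrobp, Lyz2, C1qa and C1qb), and of the endothelial and pericyte markers 3 of 7 (Kdr, Flt1 and Pdgfrb). The summed share of the microglia and macrophage markers was 0.000898 to 0.0208% in naive and 0.0100 to 0.0244% in SOHU libraries. Most of it in replicates 2 and 3 of both groups was Cd74, which was not called (edgeR adjusted p = 0.917). Cd74 had 76, 4242 and 2880 reads in naive and 49, 3820 and 1764 in SOHU libraries. Rod markers overlapped, with 0.519 to 0.614% and 0.463 to 0.723%. In bulk RNA, fewer cells of a type and less RNA per cell cannot be told apart. The part that these shifts play in the values below was not tested.

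**Figure D1:**
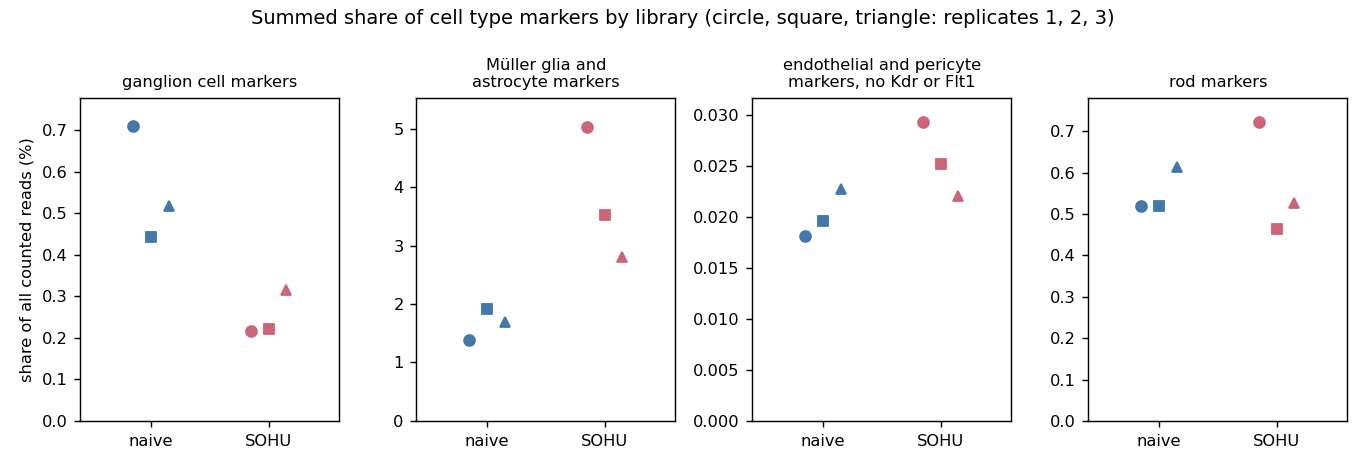
Summed share of all counted reads (%, y axis) held by 4 lists of cell type markers in each naive and SOHU library (points, 1 per library). Ganglion cell markers lie lower and glial markers higher in all 3 SOHU libraries than in any naive library, while rod markers and endothelial markers without Kdr and Flt1 overlap.

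The promoters are shown first because ACGTG is, with GCGTG, a motif through which HIF is known to act on such targets. GCGTG was not searched, so the counts below cover ACGTG alone. RefSeq promoter sequences (GRCm38.p6, 250 bases before to 50 after the start) were on hand for 8 of the 10 genes, in 11 windows. The motif ACGTG was searched on both strands, so that CACGT counts as a match on the opposite strand, and CACGTG counts as both at once. It occurred in 6 of the 8 genes, against 21.8% of all 27025 genes with a promoter sequence, and in 6 of 11 windows, against 19.6% of all 32851. The genes were picked as HIF targets, so this count describes them and does not test them. Windows around the match before the start site are printed 5′ to 3′ on the gene's own strand, with the motif in capitals, for both genes that fell in SOHU (Bnip3, Egln3) and for Ankrd37 and P4ha1, which did not pass.
Bnip3: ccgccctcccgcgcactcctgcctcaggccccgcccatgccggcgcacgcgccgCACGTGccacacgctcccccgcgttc
Egln3: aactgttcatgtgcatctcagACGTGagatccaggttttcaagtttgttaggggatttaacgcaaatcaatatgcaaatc
Ankrd37: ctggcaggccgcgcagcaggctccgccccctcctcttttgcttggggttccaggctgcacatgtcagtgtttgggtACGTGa
P4ha1: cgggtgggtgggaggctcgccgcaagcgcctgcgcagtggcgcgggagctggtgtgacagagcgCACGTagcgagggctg

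These lie at chr7:138909589-138909668 (minus strand, Bnip3), chr12:54204045-54204124 (minus, Egln3), chr8:45999851-45999932 (minus, Ankrd37) and chr10:59323216-59323295 (plus, P4ha1). The Bnip3 motif is the palindrome CACGTG, which begins 108 bases before the start. The Egln3 motif begins 229 bases before its start. Ankrd37 has matches that begin 241 and 6 bases before its start, of which the nearer is shown. The printed Ankrd37 window lies inside the gene itself (45996902 to 46005707), so its match is not upstream of the whole gene. P4ha1 has a match that begins 16 bases before its start. Higd1a has a match just after its start. Vegfa has one only at the second of its start sites, in a window at chr17:46025334-46025413. That window also lies inside the gene itself (46016993 to 46032369), so the match counted for Vegfa is not upstream of the whole gene. No match was found in the windows of Adm and Kdm3a, which says only that these letters are not in those windows.

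The comparison of SOHU with naive asks whether HIF targets stand higher or lower after 1 week of oil. Of the 10 genes, 2 fell, Bnip3 and Egln3, and 0 rose (edgeR quasi-likelihood test with Benjamini-Hochberg adjustment over all 17687 genes). Over all genes tested, 13.9% were called, 5.93% as lower and 8.02% as higher, and nothing particular to a list of 10 genes is read from 2 calls. At an unadjusted p under 0.05, 4 of the 10 were lower and 0 higher, beside 31.1% of all genes in either direction. DESeq2 and limma-voom each called 0 higher. The median log2 fold change of the 10 was -0.19, beside 0.01 for all genes. These directions are relative to the bulk of all genes (TMM scaling). Scaled instead to the summed ganglion cell markers, all 10 had a positive log2 fold change and 7 passed as higher and 0 as lower, beside 71.7% and 0.0113% of all genes.

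**Figure D2:**
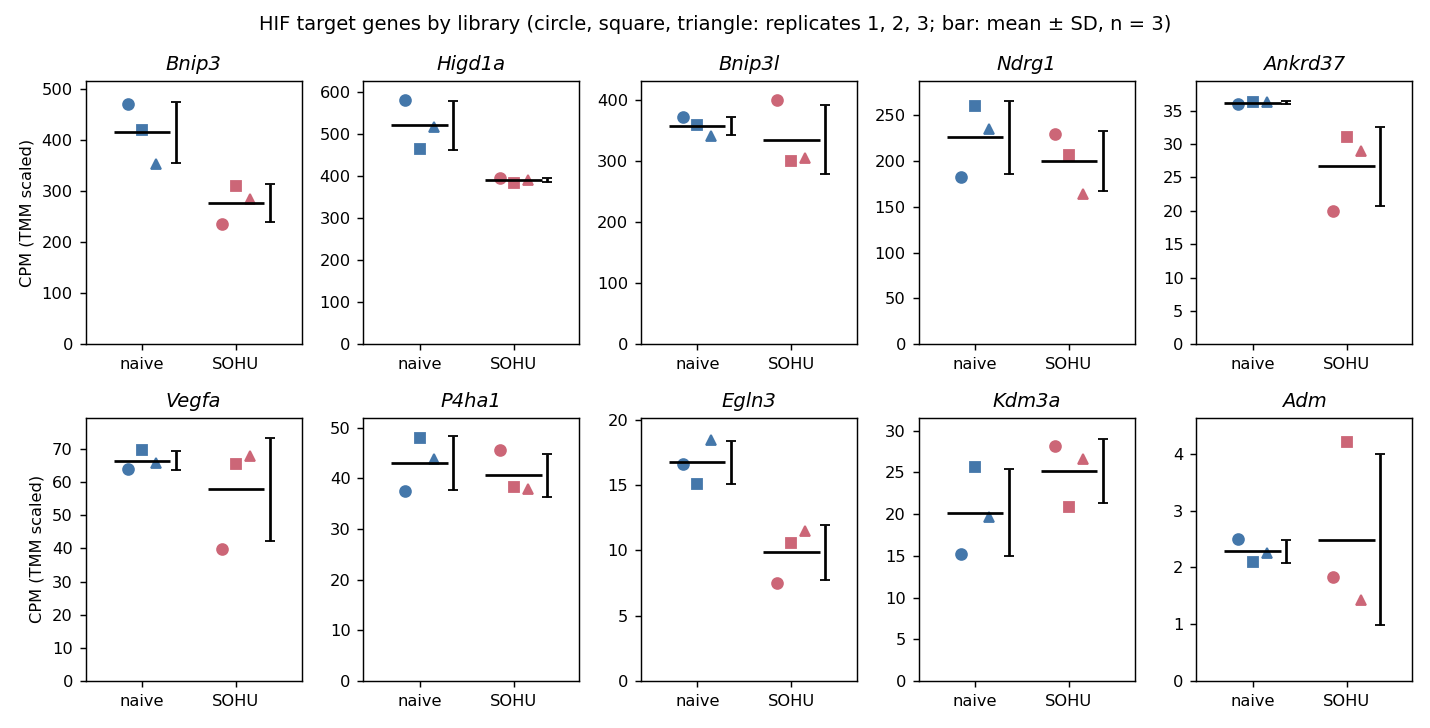
CPM, the read count relative to the TMM-scaled library size, (y axis, from 0) of the 10 genes in each naive and SOHU library (points, 1 per library), with mean and SD for n = 3. Bnip3, Higd1a, Ankrd37 and Egln3 show no overlap between the groups and lie lower in SOHU on this scale, while the other 6 overlap; scaled to ganglion cell markers, all 10 fitted changes are positive.

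Levels differed widely between the genes, and they are compared per kilobase of exon (RPKM, the TMM-scaled CPM divided by exon length). In naive libraries the order was Bnip3 (183.4 ± 26.3 RPKM, SD, n = 3), Higd1a (171.4 ± 19.1), Bnip3l (92.5 ± 3.97), Ndrg1 (34.3 ± 6.06), Ankrd37 (23.5 ± 0.123), Vegfa (15.5 ± 0.682), P4ha1 (10.48 ± 1.29), Egln3 (6.29 ± 0.632), Kdm3a (2.45 ± 0.637) and Adm (1.41 ± 0.124). Bnip3 and Higd1a overlapped, and every other pair of neighbours was separate in the naive libraries. In SOHU libraries Higd1a (128.6 ± 1.94 RPKM) and Bnip3 (122.2 ± 16.9) overlapped again with their means in the opposite order. The order of the other 8 genes was unchanged there, and Ankrd37 with Vegfa, Vegfa with P4ha1, Egln3 with Kdm3a, and Kdm3a with Adm also overlapped. The mitochondrial genes thus formed the upper end of the list and the secreted peptide Adm and the demethylase Kdm3a the lower end.

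Among the secreted ligands neither Vegfa nor Adm passed. Vegfa encodes the growth factor that drives vessel growth and permeability (mm10 chromosome 17, 46016993 to 46032369, minus strand). It had 64.0, 69.7 and 65.9 CPM in naive replicates 1 to 3 and 40.0, 65.7 and 67.8 CPM in SOHU replicates 1 to 3. SOHU replicate 1 alone lay low, and the other SOHU libraries lay within the naive range. For Vegfa, edgeR gave a log2 fold change of -0.20 (95% interval -0.64 to 0.23, adjusted p = 0.516). The interval allows a fall of 0.64 on the log2 scale as well as a small rise. Adm (chromosome 7, 110627661 to 110629820, plus strand) encodes adrenomedullin, a peptide that widens vessels. It was close to the lower limit of detection, with 65, 49 and 51 reads in naive and 44, 94 and 35 in SOHU libraries. SOHU replicate 2 was the highest of the 6 and SOHU replicate 3 the lowest, so the groups overlapped on both sides. Its log2 fold change of 0.12 (95% interval -0.80 to 1.03, adjusted p = 0.875) became -0.48 (adjusted p = 0.397) without SOHU replicate 2.

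Both main VEGF-A receptor genes, Kdr and Flt1, rose. In the list of VEGF and adrenomedullin signalling, 3 of 13 genes tested rose and 0 fell, beside 13.9% of all genes called in either direction, with a median log2 fold change of 0.34. At an unadjusted p under 0.05, 4 of the 13 were higher and 2 lower, beside 31.1% of all genes in either direction. DESeq2 called 3 higher and 2 lower, and limma-voom 3 higher and 0 lower. With scaling to ganglion cell markers 8 of the 13 were called higher and 0 lower, beside 71.7% and 0.0113% of all genes. Kdr, which encodes the main signalling receptor for VEGF-A, had 277.4, 300.9 and 269.5 CPM in naive and 855.4, 705.3 and 561.5 CPM in SOHU libraries (2.50-fold, log2 fold change 1.32, SE 0.17, adjusted p = 0.00858). Flt1, a VEGF receptor that mainly holds the ligand away from Kdr, rose from 66.8 ± 5.004 to 142.7 ± 11.8 CPM (2.14-fold, adjusted p = 0.00858). Pgf, a further ligand of Flt1, had 83, 267 and 117 reads in naive and 464, 518 and 342 in SOHU libraries (2.85-fold, adjusted p = 0.0393). The call of Pgf was lost without the low count filter (adjusted p = 0.192) and without naive replicate 1 or 3 or SOHU replicate 1 or 2 (0.127 to 0.155). Flt4, the receptor of lymphatic VEGF ligands, did not pass (log2 fold change -0.40, adjusted p = 0.432), nor did the co-receptor genes Nrp1 (0.37, adjusted p = 0.220) and Nrp2 (-0.64, adjusted p = 0.0601). Vegfb had the highest level of this list per kilobase, and its groups overlapped (log2 fold change -0.58, adjusted p = 0.0592). Kdr and Flt1 are also endothelial markers. Of the other 8 endothelial and pericyte markers, the endothelial genes Cdh5 (0 to 2 reads per library), Tie1 (0 to 10) and Pecam1 (3 to 13) were too low to test, and Tek and Cldn5 did not pass (adjusted p = 0.800 and 0.198). The pericyte marker Pdgfrb rose 2.42-fold (adjusted p = 0.0138), from 227, 233 and 191 reads to 710, 371 and 487, and Rgs5 was higher with no overlap but did not pass (log2 fold change 0.89, adjusted p = 0.0624). The summed share of these 8 was 0.0181 to 0.0227% in naive and 0.0220 to 0.0293% in SOHU libraries, which overlap, and most of it was Vtn (3673 to 6006 reads per library, adjusted p = 0.495). The part of vascular cells in the change of Kdr and Flt1 was not tested.

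Egln3 encodes PHD3, a HIF prolyl hydroxylase that is itself induced by HIF and so closes a feedback loop (mm10 chromosome 12, 54178981 to 54203860, minus strand). It had 16.6, 15.1 and 18.5 CPM in the naive and 7.48, 10.6 and 11.5 CPM in the SOHU libraries. The highest SOHU value was below the lowest naive value, and SOHU replicate 1 was the lowest. The fall was 1.699-fold (log2 fold change -0.77, SE 0.21, 95% interval -1.23 to -0.30, adjusted p = 0.039). An exact two-sided permutation of the 6 values gave p = 0.1, the minimum for groups of this size. The call was lost without naive replicate 1, 2 or 3 or SOHU replicate 1 or 2 (adjusted p = 0.0516 to 0.143), while the log2 fold change stayed between -0.88 and -0.61 in all 6 omissions. Its sister enzymes did not pass: Egln1 had a log2 fold change of 0.11 (adjusted p = 0.713) and Egln2 one of -0.11 (adjusted p = 0.683). In ratios chosen after the values were seen, that of Egln3 to Egln1, which no scaling of the libraries can change, was 0.244, 0.295 and 0.393 per kilobase in naive and 0.107, 0.191 and 0.213 in SOHU libraries. The groups did not overlap (exact permutation p = 0.1, the smallest possible).

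Of 16 genes of HIF subunits and oxygen sensing, 2 rose, 1 fell and 13 did not pass, beside 13.9% of all genes called, with a median log2 fold change of -0.02. Epas1, the alpha subunit HIF-2α, had 43.2, 45.9 and 46.7 CPM in the naive and 92.3, 97.4 and 85.1 CPM in the SOHU libraries, a 2.02-fold rise (log2 fold change 1.02, SE 0.13, adjusted p = 0.00858). The spread within each group was small beside the gap between them. Hif3a, a further alpha subunit that can act as an inhibitor, rose from 1.57 ± 0.276 to 4.18 ± 1.45 CPM (adjusted p = 0.027). Hif1a did not pass, with 190.4 ± 11.1 CPM in naive and 176.4 ± 16.1 CPM in SOHU (log2 fold change -0.11, adjusted p = 0.590). Reads of Epas1 per read of Hif1a, per kilobase, were 0.234, 0.244 and 0.277 in naive and 0.616, 0.547 and 0.489 in SOHU libraries, a separation that is independent of scaling (exact permutation p = 0.1, the smallest possible). Siah2, a ubiquitin ligase that removes Egln proteins, fell from 55.0 ± 3.20 to 37.7 ± 6.76 CPM (adjusted p = 0.0494). Vhl, the recognition subunit for hydroxylated HIF, had 76.0 ± 12.1 and 128.8 ± 42.2 CPM and missed the threshold (adjusted p = 0.0532), passing with DESeq2 (adjusted p = 0.0129). Elob, a partner of Vhl with the highest level of the list per kilobase, overlapped (log2 fold change 0.14, adjusted p = 0.512). With scaling to ganglion cell markers 14 of the 16 were called higher and 0 lower, beside 71.7% and 0.0113% of all genes.

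**Figure D3:**
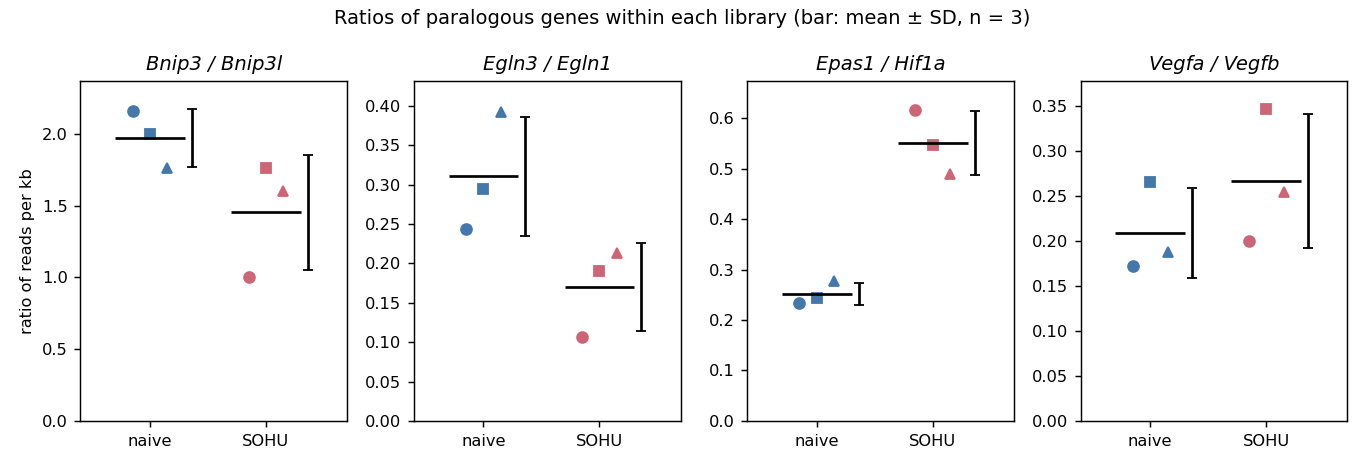
Ratio of reads per kilobase between paralogous genes (y axis, from 0) in each naive and SOHU library (points), with mean and SD for n = 3. Egln3 to Egln1 lies lower and Epas1 to Hif1a higher in every SOHU library, Bnip3 to Bnip3l is separate only beyond the rounded value of 1.76, and Vegfa to Vegfb overlaps.

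Of the mitochondrial members, Bnip3 fell. It encodes a receptor on the outer mitochondrial membrane that ties mitochondria to the autophagy machinery (mm10 chromosome 7, 138890836 to 138909519, minus strand). It had 471.9, 420.8 and 353.3 CPM in naive and 235.2, 310.0 and 285.4 CPM in SOHU libraries. The highest SOHU library lay below the lowest naive library, and SOHU replicate 1 was again the lowest. The fall was 1.5-fold (log2 fold change -0.58, SE 0.16, 95% interval -0.94 to -0.23, adjusted p = 0.0381; exact permutation p = 0.1). The call was lost without naive replicate 1, 2 or 3 or SOHU replicate 1 or 2 (adjusted p = 0.0685 to 0.158), and the log2 fold change stayed between -0.71 and -0.49 in all 6 omissions.

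Its paralogue Bnip3l (NIX; chromosome 14, 66985239 to 67008877, minus strand), a mitophagy receptor best known for clearing mitochondria from red cell precursors, did not pass. It had 372.0, 358.1 and 341.4 CPM in naive and 400.3, 300.1 and 304.5 CPM in SOHU libraries. SOHU replicate 1 was the highest of all 6 libraries for Bnip3l and the lowest for Bnip3. The fitted change of Bnip3l was -0.09 in log2 (95% interval -0.42 to 0.23, adjusted p = 0.704). The ratio of Bnip3 to Bnip3l was 2.16, 2 and 1.76 per kilobase in naive and 1, 1.76 and 1.6 in SOHU libraries, so that the groups were separate but naive replicate 3 and SOHU replicate 2 were equal to the digits shown (exact permutation p = 0.1, the smallest possible). Higd1a (chromosome 9, 121848563 to 121858362, minus strand), a small inner membrane protein linked to the respiratory chain, had 581.3, 465.2 and 516.8 CPM in naive and 396.3, 384.7 and 392.0 CPM in SOHU libraries. The SOHU libraries lay close together and below all naive libraries. Higd1a narrowly missed the threshold (log2 fold change -0.41, SE 0.13, 95% interval -0.70 to -0.12, adjusted p = 0.0611) and passed with DESeq2 (adjusted p = 0.0234) and without a low count filter (0.0416).

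In the list of mitophagy receptors and adaptors, 1 of 18 genes tested fell and 0 rose, beside 5.93% of all genes called lower and 8.02% higher. The median log2 fold change of the list was -0.16. At an unadjusted p under 0.05, 3 of the 18 were lower and 1 higher, beside 31.1% of all genes in either direction. DESeq2 called 3 lower and 1 higher, and limma-voom called 1 lower and 0 higher. With scaling to ganglion cell markers 17 of the 18 were called higher and 0 lower, beside 71.7% and 0.0113% of all genes. The gene that fell was Gabarapl1, an ATG8-family protein to which mitophagy receptors bind, with 601.2, 484.9 and 465.4 CPM in naive and 311.3, 281.7 and 301.2 CPM in SOHU libraries (1.74-fold, adjusted p = 0.0128). Map1lc3a, the ATG8-family gene with the highest level of the list per kilobase, overlapped (log2 fold change -0.31, adjusted p = 0.165).

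The remaining members did not pass. Ankrd37 (chromosome 8, 45996902 to 46005707, minus strand), a gene of an ankyrin repeat protein, had 935, 846 and 821 reads in naive and 480, 694 and 711 in SOHU libraries, or 36.2 ± 0.19 and 26.6 ± 5.92 CPM. The naive libraries were almost equal in CPM and all SOHU libraries lay below them, most of all SOHU replicate 1 (log2 fold change -0.44, SE 0.18, adjusted p = 0.127). It shares 57 exon bases with Ufsp2 on the opposite strand, whose level is 390.5% of its own, and 349 with Lrp2bp (14.85%), and strand use in counting is not given in the sources used here, so its counts are uncertain in that respect. Ndrg1 (chromosome 15, 66929318 to 66969640, minus strand), a stress-response protein whose loss causes an inherited neuropathy, had 182.3, 260.6 and 235.5 CPM in naive and 229.1, 206.5 and 164.3 CPM in SOHU libraries, which overlap (log2 fold change -0.18, 95% interval -0.57 to 0.21, adjusted p = 0.523). P4ha1 (chromosome 10, 59323296 to 59373304, plus strand), a catalytic subunit of the prolyl hydroxylase that matures collagen, had 43.1 ± 5.32 CPM in naive and 40.6 ± 4.28 CPM in SOHU (log2 fold change -0.09, 95% interval -0.42 to 0.25, adjusted p = 0.735). Kdm3a (chromosome 6, 71588972 to 71632990, minus strand), a histone H3 lysine demethylase, had 15.2, 25.6 and 19.7 CPM in naive and 28.2, 20.8 and 26.6 CPM in SOHU libraries (log2 fold change 0.32, 95% interval -0.16 to 0.80, adjusted p = 0.337). It was the member with the most positive value.

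The groups did not overlap in 4 of the 10 genes, all lower in SOHU, against 19.7% of all genes tested in that direction and 39.0% in either. SOHU replicate 1 was the lowest of the 6 libraries for Vegfa, Bnip3, Egln3 and Ankrd37. Among the SOHU libraries it was the highest for Bnip3l, Ndrg1, P4ha1, Higd1a and Kdm3a. The members therefore did not shift together within that library, which also had the lowest share of ganglion cell markers (0.216%) and the highest of glial markers (5.03%). The part of cell makeup in this pattern was not tested.

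**Figure D4:**
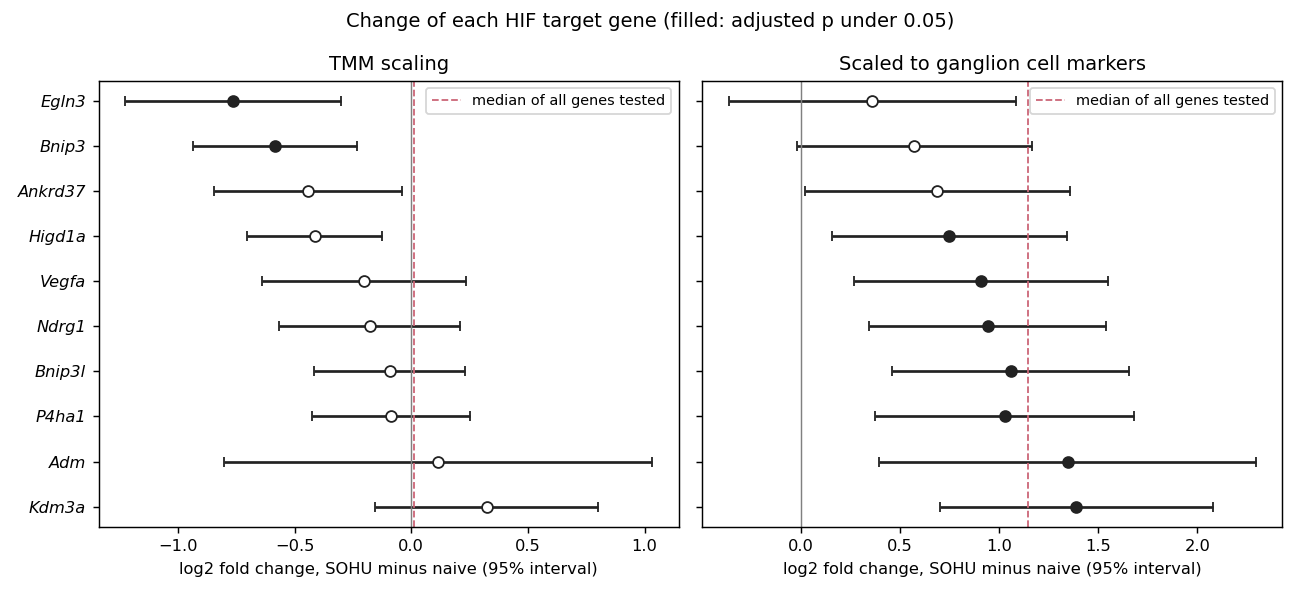
Log2 fold change (SOHU minus naive, x axis) with its 95% interval for each of the 10 genes, under TMM scaling (left) and scaled to the summed ganglion cell markers (right). Only Egln3 and Bnip3 pass on the left, both lower; on the right all values are positive, and the dashed line marks the median of all genes tested, 0.01 and 1.15.

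Per ganglion cell marker read the picture changed in sign. With the libraries scaled to those markers, the median over all genes moved from 0.01 to 1.15 in log2. On this scale Egln3 stood at 0.36 (SE 0.37, edgeR adjusted p = 0.364), which is -0.79 relative to the median gene. Bnip3 stood at 0.57 (SE 0.30, adjusted p = 0.0761), which is -0.58 relative to it. Subtracting the median largely undoes the scaling, so values relative to it come close to those under TMM (-0.765 for Egln3 and -0.585 for Bnip3) by construction. They are no second test of the fall. Reads of Bnip3 per 1000 ganglion cell marker reads were 64.5, 95.2 and 69.3 in naive and 102.4, 144.4 and 93.9 in SOHU libraries, and overlapped. Those of Egln3 were 2.27, 3.42 and 3.62 in naive and 3.26, 4.93 and 3.79 in SOHU libraries, and overlapped as well. Relative to the median gene the other members lay between -0.46 (Ankrd37) and 0.24 (Kdm3a). Whether the counted RNA of a member came from ganglion cells cannot be read from these libraries.

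Of 37 other HIF targets tested, 5 rose, 5 fell and 27 did not pass, beside 13.9% of all genes called, with a median log2 fold change of 0.08. Hmox1, the haem oxygenase that NRF2 also induces, rose from 8.82 ± 3.19 to 24.1 ± 1.53 CPM (adjusted p = 0.0119). Plod2, a collagen lysyl hydroxylase, rose from 9.28 ± 1.05 to 19.4 ± 3.44 CPM (adjusted p = 0.0139). Ets1, a transcription factor gene, rose from 1.05 ± 0.526 to 3.84 ± 0.542 CPM (adjusted p = 0.0182). Lox, a collagen cross-linking enzyme, passed (adjusted p = 0.0283) from 0, 2 and 3 reads in naive to 15, 25 and 13 in SOHU libraries. The genes that fell by the naming rule were Dusp1, a MAP kinase phosphatase (115.4 ± 9.25 to 64.3 ± 11.04 CPM, adjusted p = 0.0139), and Cited2, which competes with HIF for its coactivators (109.6 ± 3.28 to 66.0 ± 12.3 CPM, adjusted p = 0.0182). A further 4 genes passed and are named after their values were seen: Angptl4 rose (adjusted p = 0.0404), and Pdk1 (0.0309), Pfkfb3 (0.037), which is itself a regulator of glycolysis, and the transferrin receptor gene Tfrc (0.0404) fell. Angptl4 had 38, 34 and 27 reads in naive and 57, 182 and 73 in SOHU libraries, and limma-voom did not call it (adjusted p = 0.0807). Mif had the highest level of this list per kilobase and did not pass (log2 fold change -0.32, adjusted p = 0.176). Plod2 shares 346 exon bases with Gm38391 on the opposite strand (27.45% of its level), so its counts are uncertain in the same respect as those of Ankrd37. Dusp1 shares only 11 bases with Ergic1 on the opposite strand (97.8%), a far shorter overlap. With scaling to ganglion cell markers 27 of the 37 were called higher and 0 lower, beside 71.7% and 0.0113% of all genes.

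**Figure D5:**
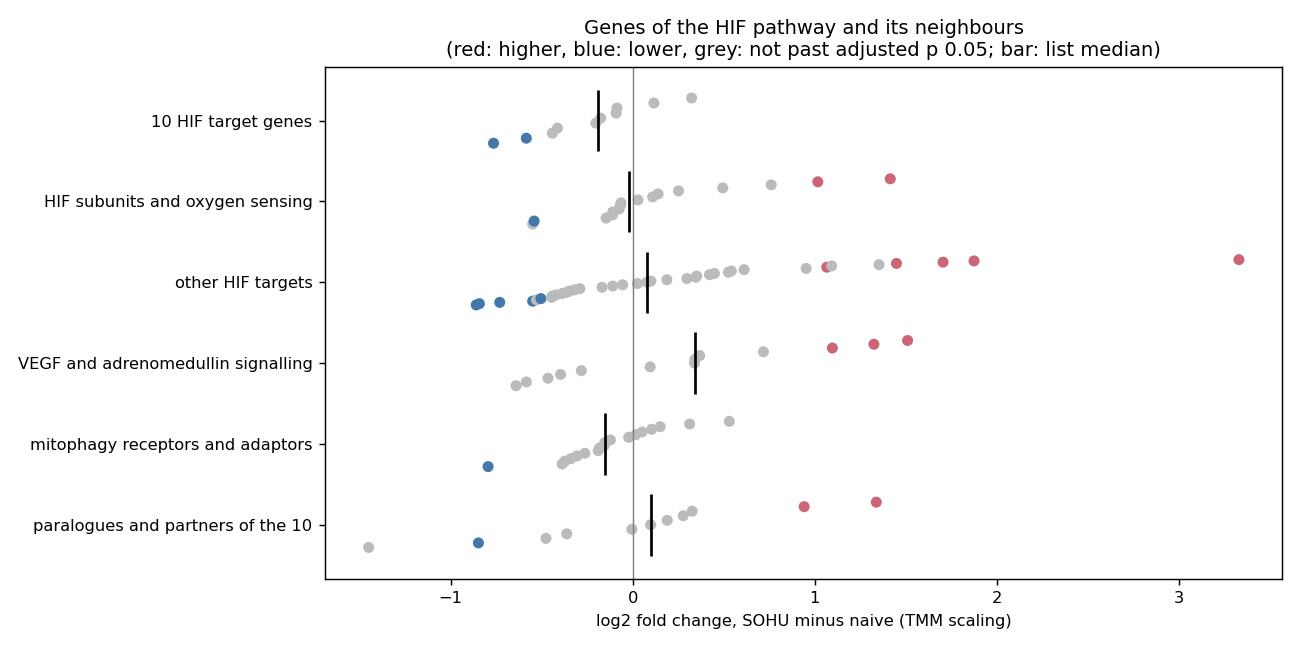
Log2 fold change (SOHU minus naive, TMM scaling, x axis) of every gene tested in 6 lists, 1 point per gene, with the list median as a bar. Coloured points are past an adjusted p of 0.05. Of the 10 HIF target genes 2 fell and 0 rose, and of 37 other HIF targets 5 fell and 5 rose, beside 13.9% of all genes called. Under scaling to ganglion cell markers no gene of these lists was called lower, but neither were more than 0.0113% of all genes.

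Of 11 paralogues and partners of the members tested, 2 rose and 1 fell, beside 13.9% of all genes called, with a median log2 fold change of 0.10. With scaling to ganglion cell markers 9 of the 11 were called higher and 0 lower, beside 71.7% and 0.0113% of all genes. Ndrg4, a neuronal relative of Ndrg1 with the highest level of the list per kilobase, fell from 2517 ± 507.7 to 1399 ± 247.9 CPM (adjusted p = 0.0227), and Ndrg2, a relative found mainly in astroglia, rose from 525.6 ± 47.0 to 1009 ± 381.2 CPM (adjusted p = 0.0301). Calca, which encodes a peptide of the same family as adrenomedullin, had 10.8, 7.61 and 7.96 CPM in naive and 34.6, 16.1 and 15.9 CPM in SOHU libraries (adjusted p = 0.0257). As given above, glial marker reads were higher and ganglion cell marker reads lower in the SOHU libraries, and their part in these changes was not tested.

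The genes whose profile over the 6 libraries was most like that of a member that fell were found by the root mean square difference of centred log2 CPM among 10454 genes. For Bnip3 these were Arxes1 (0.068) and Cyb561 (0.069), and for Egln3 Ids (0.057) and Scn3a (0.072). Of these, Cyb561 (adjusted p = 0.048), Ids (0.0298) and the sodium channel gene Scn3a (0.0341) passed as lower and Arxes1 (0.077) did not.

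The calls depended on single libraries. Of the 25 named genes that passed, 25 were lost without naive replicate 1 and 25 without naive replicate 3, settings in which edgeR called 0 genes of the whole table while 3919 and 4251 had an unadjusted p under 0.05. Without SOHU replicate 2, 20 were lost, and Kdr, Flt1, Hif3a, Plod2 and Epas1 were kept. Without naive replicate 2, 16 were lost, and without SOHU replicate 1, 7. None was lost without SOHU replicate 3.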

How the data were processed

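RNA pulled down with anti-HA antibody from 3 naive and 3 SOHU mouse retina samples was sequenced. The authors deposited raw counts of reads per gene. The submitters' processing notes name build mm10 and list featureCounts, HISAT2, HISAT, Trim Galore, MultiQC and bcl2fastq 2.17. Their settings, the annotation and the use of strand were not given in the sources used here. Identifiers were matched to symbols from GENCODE M21 (55154 of 55335 genes), and the exon length comes from the deposited table. All 6 single-library files equalled the table, and replicates differed by more than sampling noise (chi-square per degree of freedom 12.6 to 79.0).

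Counts were filtered with filterByExpr (17687 genes), scaled by TMM (factors 0.943 to 1.039) and compared with edgeR 4.0.16 (quasi-likelihood, robust, group as the only term) in R 4.3.3, with a threshold of 0.05 on the Benjamini-Hochberg adjusted p. DESeq2 1.42.0, limma-voom (limma 3.58.1), other scalings and filters, a replicate block and the omission of each library were the alternatives. Shares and CPM carry counting error besides the spread shown.

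Members, lists and tests were chosen with earlier results of these data known, and no list is independent evidence. Named genes are all members; in each pathway list the genes past the threshold (at most 6, by p) and the gene with the highest level per kilobase; and for each called member the 2 genes of most similar profile among those whose log2 CPM averaged 3 or more (prior count 2). A few further genes are named after their values were seen, as were the ratios between paralogues. The medians of the pigment epithelium, oligodendrocyte, erythrocyte, microglia, bipolar, amacrine and horizontal, and cone marker lists were 0.70, -0.27, 0.10, 1.75, -0.50, -0.73 and 0.04.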

Additional observations from a re-analysis of the deposited data

How the results depend on the processing

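Of the 10 HIF targets, 2 were lower in the fit on all libraries. That number was 0 to 2 when 1 library was left out, 0 with library sizes only, 0 with scaling to ganglion cell markers (where 7 were higher) and 1 with the replicate block, which kept Egln3 and lost Bnip3 (adjusted p = 0.0639). The replicate block also lost the calls of Siah2 (0.0589), Pdk1 (0.0573), Pfkfb3 (0.0579) and Cyb561 (0.086), which left 0 genes of HIF subunits and oxygen sensing called lower and 3 higher. At an unadjusted p under 0.05, 3 members were lower and 0 higher with library sizes only and without naive replicate 1, naive replicate 3 or SOHU replicate 1, and 3 were lower and 1 higher without naive replicate 2. The number of all genes called, 2467, was 3755 with DESeq2, 12676 with scaling to ganglion cell markers, 2070 with the replicate block and 0 to 3896 when 1 library was left out. Same-numbered naive and SOHU libraries had correlations of deviations of 0.163, 0.251 and 0.004 for replicates 1, 2 and 3. Those of differently numbered libraries were -0.28 to 0.095. Replicates 1 and 2 of each group correlated best with their own number, and replicate 3 of each group did not. The labels state no pairing, so the main fit had none and the replicate block was an alternative. Whether same-numbered libraries share a batch was not tested. RLE factors, the stricter filter (at least 50 reads in 3 libraries) and limma-voom left 2 members called lower; DESeq2 and no low count filter gave 3, adding Higd1a.

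Signs changed as follows. Adm was -0.061 with limma-voom, -0.023 with the replicate block and -0.48 without SOHU replicate 2 (range -0.48 to 0.41 over the omissions), and P4ha1 was 0.008 without naive replicate 2 (range -0.19 to 0.008). With scaling to ganglion cell markers, which raised the median of all genes to 1.15, log2 fold changes became positive for Bnip3 (0.57), Bnip3l (1.059), Egln3 (0.36), Ankrd37 (0.69), Ndrg1 (0.94), P4ha1 (1.03), Higd1a (0.75), Vegfa (0.91), Hif1a (1.03), Arnt2 (0.57), Siah2 (0.58), Pdk1 (0.64), Pfkfb3 (0.56), Cited2 (0.38), Tfrc (0.22), Dusp1 (0.28), Mif (0.81), Vegfb (0.56), Gabarapl1 (0.37), Map1lc3a (0.85), Ndrg4 (0.30), Cyb561 (0.62), Ids (0.40), Scn3a (0.33) and Arxes1 (0.64). Library sizes alone lost 8 of the 25 named calls (adjusted p = 0.0523 to 0.070). Apart from the changed scaling and the smaller number of libraries, the cause was not tested. Adm, at 35 to 94 reads a library, is the member whose value the depth limits most.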

Other observations

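Some other ratios of related genes within the libraries were also separate between the groups. The neuronal beta subunit gene Arnt2 and the general Arnt stood at a ratio of 2.22, 1.53 and 1.88 per kilobase in naive and 0.874, 0.763 and 1.05 in SOHU libraries, which do not overlap (exact permutation p = 0.1, the smallest possible), while neither gene passed by itself (log2 fold change -0.55 and 0.49, edgeR adjusted p = 0.0539 and 0.0923). Ndrg1 to Ndrg2 stood at 0.168, 0.246 and 0.257 in naive and 0.0814, 0.132 and 0.109 in SOHU libraries, again with no overlap. By itself Ndrg1 did not pass (edgeR adjusted p = 0.523), while Ndrg2 rose (0.0301). These ratios do not depend on how the libraries are scaled. They were chosen after their values were seen, and the share of all gene pairs whose ratios do not overlap was not computed. The part of cell makeup in them was not tested.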
